A study of Drosophila melanogaster with 2 samples.

Results

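The steroid hormone receptor gene EcR, its partner usp and 8 genes of the ecdysone response were examined in whole adult male Drosophila melanogaster that overexpressed the microRNA miR-305. Ecdysteroids are the moulting hormones of insects. The active form, 20-hydroxyecdysone, binds a heterodimer of the nuclear receptors EcR and usp, which then switches on early genes for transcription factors, and these in turn control late genes. In adult flies the same hormone acts in reproduction, sleep, memory and the stress response, and adults make less of it than larvae that are about to pupate.

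The genes were chosen by name: EcR, usp, Eip74EF, Eip75B, Eip78C, Hr4, Hr38, Hr39, ftz-f1 and Eip71CD. Of these 10 genes, 8 had a row of their own among the 15906 features of the deposited table. The other members, usp and Eip71CD, were found only inside features that hold several genes, so neither has a value of its own. Of the 8 genes with a row, 6 averaged at least 1 FPKM, and Hr38 and Hr4 lay below that level.

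There were 2 libraries of polyadenylated RNA, 1 per group, both from males aged 15 days. In the miR-305 group (da-Gal4/UAS-miR305) the daughterless driver, which acts in most tissues, expressed a miR-305 transgene. The control group (da-Gal4/+) carried that driver without the transgene. With 1 library per group no test between the groups exists, and a difference between the libraries has no replicate check. In RNA from whole flies, fewer cells of a type and less RNA per cell cannot be told apart.

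The values are FPKM (fragments counted per kilobase, scaled for library size by a method not checked here), a level per transcript length. Their sum was 1176985 over the miR-305 library and 967511 over the control library, and the depth in reads is unknown. The mir-305 stem-loop had 546 FPKM in miR-305 males, against a listed 0 in control males. The label as adult males was set against marker genes: 4 seminal protein genes with rows of their own summed to 35844 FPKM in miR-305 males and 19281 FPKM in control males, whereas the yolk protein genes Yp1 and Yp2 were below 1 FPKM in both and Yp3 had 4.79 FPKM in miR-305 males and 5.69 FPKM in control males. Markers of other tissues differed as well. All 5 testis genes had ratios below 0, from -0.99 to -0.31, with sums of 1080 FPKM in miR-305 males and 1753 FPKM in control males. Over all features with a mean of at least 1 FPKM, 53.6% had a ratio below 0. Of 5 eye genes 4 were below 0, with norpA the lowest at -0.71. The other, ninaE, had 2685 FPKM in miR-305 males and 2206 FPKM in control males (0.28). Eye genes summed to 2890 FPKM in miR-305 males and 2462 FPKM in control males. Of 5 fat body genes 4 were above 0, with Lsp2 the highest at 1.68. Flight muscle genes summed to 1120 FPKM in miR-305 males and 1113 FPKM in control males. Of these 5 genes 3 were above 0 and 2 below, from -0.15 to 0.96 for Act88F (29.6 FPKM in miR-305 males and 14.8 FPKM in control males). The 5 genes listed as ovary markers summed to 7.201 FPKM in miR-305 males and 6.57 FPKM in control males. Of these, osk and otu were below 1 FPKM in both libraries. The genes nos, bam and vas were above it, with ratios from -0.30 for bam to 0.68 for vas, and their source tissue was not tested. The part of these unequal marker levels in the results below was not tested. Scaling both libraries to the same sum of FPKM shifted the median log2 ratio of all features by -0.25. Each ratio was taken on the log2 scale after 1 was added to both FPKM values, miR-305 males over control males, so differences of low genes are understated. A gene counted as higher or lower at a difference of at least 2-fold on that scale.

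All 6 ecdysone genes past the level of 1 FPKM had less RNA in the miR-305 library, and none of them passed 2-fold in either direction. Over all 11936 features past that level, 4.11% passed 2-fold, 2.36% higher and 1.74% lower, so 0 of 6 is close to what the table as a whole gives. The median log2 ratio of the 6 genes was -0.21, against -0.03 over all features, of which 53.6% had a ratio below 0. Among the 2885 features with a mean of 1 to 5 FPKM, where all of these genes but Eip75B lie, the median was -0.09 and 61.6% were below 0. The 8 genes with a row summed to 25.8 FPKM in miR-305 males and 30.3 FPKM in control males. A pseudocount cannot turn the sign of a ratio, and scaling to the same sum lowers every ratio. Scaling to the same median, which raises the values of the miR-305 library, left the 6 ratios between -0.48 and -0.01.

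**Figure D1:**
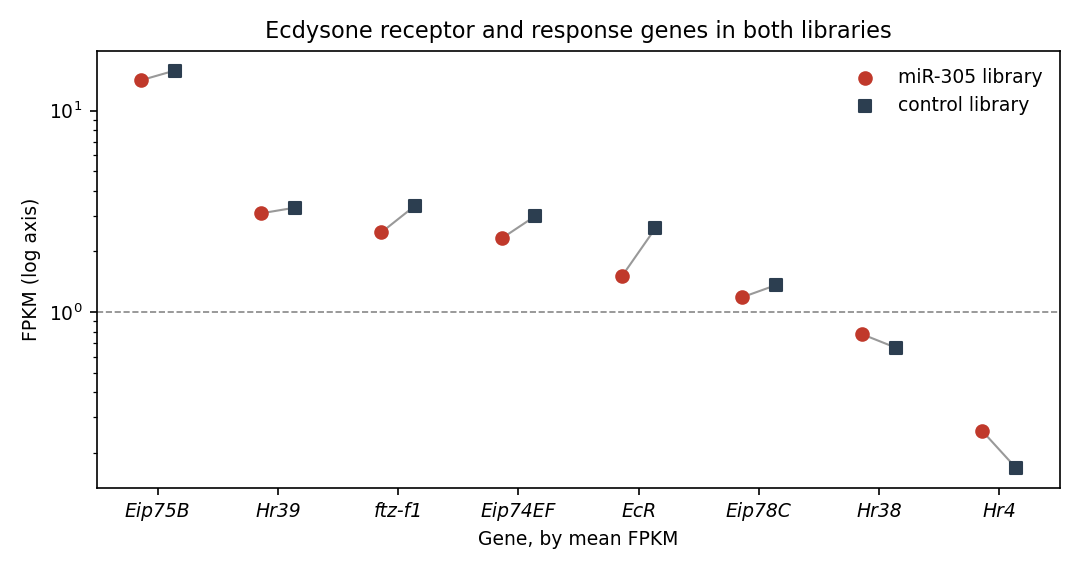
FPKM (log axis) of the 8 genes with a row of their own, in the miR-305 library (red circles) and the control library (dark squares), ordered by mean level; grey lines join the values of 1 gene and the dashed line marks 1 FPKM. Eip75B stands far above the others at 14.2 and 15.8 FPKM, and EcR shows the steepest line among the genes above 1 FPKM, with 1.503 FPKM in miR-305 males and 2.61 FPKM in control males.

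EcR encodes the ecdysone-binding subunit of the receptor. The gene (FBgn0000546) lies on the minus strand of chromosome 2R, 6087873 to 6169087 on dm6, and has 6 annotated transcripts, the longest of 8415 nt in 6 exons. It had 1.503 FPKM in miR-305 males and 2.61 FPKM in control males. This is 57.6% of the control level, or 1.74-fold lower without the pseudocount, and a log2 ratio of -0.53. No other member past 1 FPKM lay as far from equal. A ratio as low as that of EcR was found for 7.64% of all features past the level of 1 FPKM and for 10.3% of the 2885 features with a mean of 1 to 5 FPKM. Another 25 annotated genes overlap the span of EcR, but none shares bases with its exons. The isoforms EcR-A and EcR-B, which differ in their N-terminal parts, are summed in this value.

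At a looser limit of 1.5-fold, EcR still fell short, and 0 of the 6 genes passed. Over all features 5.97% were at least 1.5-fold lower, and among features with a mean of 1 to 5 FPKM 8.84% were at least 1.5-fold lower. EcR did pass 1.5-fold with a pseudocount of 0.1, with a log2 ratio of -0.76, and after scaling to 1 sum, with -0.69. With a pseudocount of 5 its ratio was -0.23. At 2-fold, 4.82% of the features with a mean of 1 to 5 FPKM passed in either direction, and EcR did not pass under any setting tried.

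The partner gene usp, the fly homologue of the vertebrate retinoid X receptors, has no value of its own. Its feature also holds Actn, which encodes the alpha-actinin of muscle Z-discs and other actin networks. On the annotation used here Actn (X, 2023822 to 2042311) spans all of usp (X, 2038798 to 2042311) on the same strand, and their exons share bases. This feature had 50.3 FPKM in miR-305 males and 52.5 FPKM in control males, a log2 ratio of -0.06. The share of usp in it cannot be read from the table, so the level of the heterodimer's second subunit is not known for either library.

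Early response genes followed, all of them for transcription factors. Eip74EF (3L, 17558672 to 17619325) encodes ETS-domain proteins that act directly downstream of the hormone. It had 2.32 FPKM in miR-305 males and 2.997 FPKM in control males, which is 77.4% of control and a log2 ratio of -0.27. Eip75B (3L, 17950953 to 18064696) encodes a nuclear receptor related to the vertebrate Rev-erb proteins, which binds haem and can block the action of Hr3. Eip75B had the highest level of the 8 genes, with 14.2 FPKM in miR-305 males and 15.8 FPKM in control males, a log2 ratio of -0.15. Eip78C (3L, 21226609 to 21266503), a related receptor of the same subfamily, had 1.18 FPKM in miR-305 males and 1.36 FPKM in control males. The ratio of Eip78C was -0.11, within the middle of all features, whose quartiles were -0.24 and 0.18. Eip74EF lay just below that lower quartile, and Eip75B lay inside the quartiles.

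The next genes act between the early and the late response. ftz-f1 (3L, 18750607 to 18801309) encodes an orphan receptor that makes tissues competent for the prepupal hormone pulse. It had 2.49 FPKM in miR-305 males and 3.38 FPKM in control males, which is 73.7% of control and a log2 ratio of -0.33. After EcR this was the ratio farthest from 0 among the members past 1 FPKM. Its paralogue Hr39 (2L, 21237250 to 21259675), known in flies for the development of the female reproductive glands, had 3.09 FPKM in miR-305 males and 3.30 FPKM in control males. With a log2 ratio of -0.07, Hr39 was the member past 1 FPKM nearest to equal. The annotated exons of ftz-f1 share bases with the noncoding RNA CR45939 and those of Hr39 with 3 annotated entries, the mir-9374 stem-loop among them, all on the same strand, so reads from the shared bases are of uncertain assignment.

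Hr38 and Hr4 were too low to be counted in either direction. Hr38 (2L, 20683462 to 20714588) encodes the fly relative of the vertebrate NR4A receptors, can pair with usp and is known as a gene switched on by neuronal activity. It had 0.78 FPKM in miR-305 males and 0.67 FPKM in control males. Hr4 (X, 1941940 to 2007956) encodes a repressor of early genes that also restrains ecdysone synthesis in the larva, and it had 0.26 FPKM in miR-305 males and 0.17 FPKM in control males. Both genes had more RNA in miR-305 males by these values. Once the libraries were scaled to 1 sum, Hr38 came out the other way, with a log2 ratio of -0.02. The exons of both overlap a gene on the opposite strand (CG2617 for Hr38 and PIG-K for Hr4). The libraries were made with a directional kit, but no source used here says whether strand was used in the counting. Whether reads of these pairs were kept apart is thus unknown.

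Eip71CD, which encodes a methionine sulphoxide reductase that repairs oxidised methionine and is named MsrA in the annotation, is the only enzyme among the members. Its feature covers 3 neighbouring genes of the plus strand: Z600 (3L, 15509061 to 15509513), a cell cycle inhibitor of the embryo, gdl (3L, 15509445 to 15511047), a gene expressed in the gonads, and Eip71CD itself (3L, 15511052 to 15513202). The feature had 58.2 FPKM in miR-305 males and 65.6 FPKM in control males, a log2 ratio of -0.17. How much of it belongs to the reductase is unknown. With both shared features counted, whose values also hold other genes, 8 of 8 ratios were below 0, beside 53.6% of all features. The median was then -0.16, and 0 passed 2-fold, beside 4.11% of all features.

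**Figure D2:**
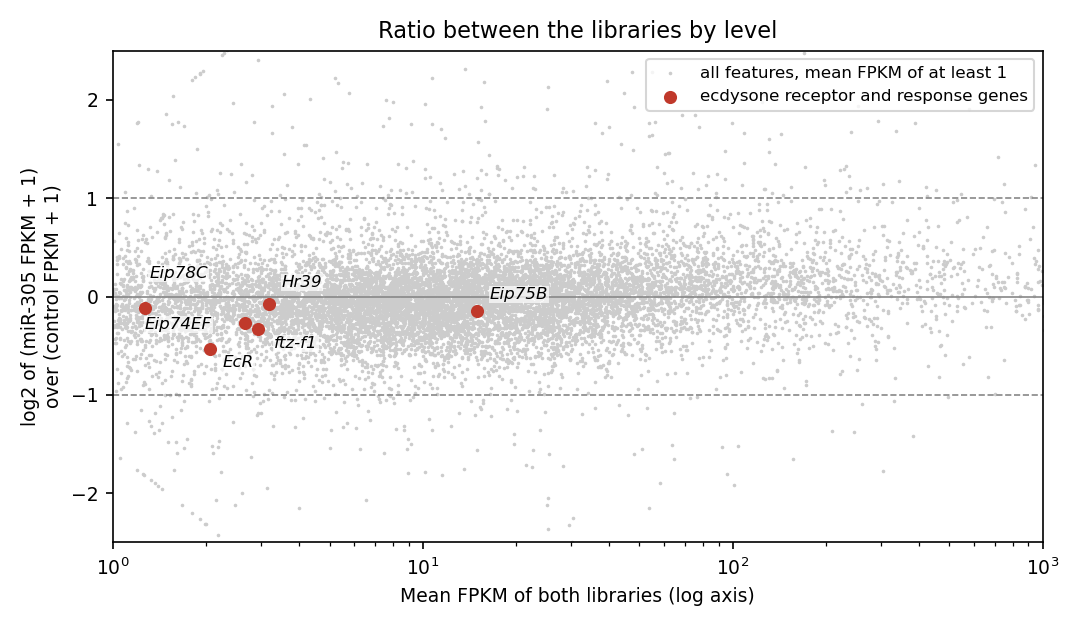
Log2 ratio of the miR-305 library over the control library against the mean FPKM of both (log axis) for the features past 1 FPKM (grey) and the 6 ecdysone genes among them (red); dashed lines mark 2-fold and the solid line equality. A further 271 features lie outside the axes. The red points lie below the solid line and above the lower dashed line, with EcR the lowest at -0.53.

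The 6 genes past 1 FPKM share a feature that the choice by name did not use: each has a long transcript, from 4844 nt for Hr39 to 8415 nt for EcR. Hr4 (12551 nt) and Hr38 (7704 nt), both under 1 FPKM, are long as well, but their log2 ratios were 0.11 and 0.09. Long genes had lower ratios across the table. The 1600 protein-coding genes with a transcript over 4000 nt had a median log2 ratio of -0.10, and 70.3% of them were below 0. Among the 550 of these with a mean of 1 to 5 FPKM, where EcR, Eip74EF, Eip78C, Hr39 and ftz-f1 lie, the median was -0.14, the quartiles were -0.28 and -0.01, and 76.5% were below 0. Against these genes, Eip78C, Hr39 and Eip74EF lay between the quartiles, ftz-f1 lay just below the lower quartile, and 3.09% had a ratio as low as that of EcR. The part of transcript length in the members' ratios was not tested.

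The order of levels among the members was the same in both libraries except for one pair. Eip75B was the highest, then came Hr39 and ftz-f1, which traded places, then Eip74EF, EcR, Eip78C, Hr38 and Hr4. The values of ftz-f1 (2.49 FPKM in miR-305 males and 3.38 FPKM in control males) enclosed those of Hr39, and they overlapped those of Eip74EF, which in turn overlapped those of EcR. Within each library, however, ftz-f1 stood above Eip74EF and Eip74EF above EcR. With 1 library per group, the spread of a level within a group is unknown, so the order of close neighbours has no replicate check. Eip78C stood below EcR, Hr38 below Eip78C and Hr4 below Hr38 in each library as well. The receptor gene EcR was thus at a lower level per length than the early gene Eip75B in each library.

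The members were also placed in the nuclear receptor family, of which 7 members with a row of their own and 10 other genes with one could be read. ERR, the oestrogen-related receptor that controls carbohydrate metabolism in the fly, had the highest level, with 35.9 FPKM in miR-305 males and 35.8 FPKM in control males. Hnf4, a receptor for fat use in starvation, followed with 33.7 FPKM in miR-305 males and 34.1 FPKM in control males. Eip75B ranked 3 of these 17 genes, Hr39 ranked 6, ftz-f1 7, EcR 8, Eip78C 10, Hr38 12 and Hr4 14. Over all features past 1 FPKM, 53.6% had a ratio below 0 and 4.11% passed 2-fold. Among the 5 other receptors past 1 FPKM the median log2 ratio was -0.10, beside -0.15 for the 5 receptors that are members. Of the 5 other receptors, 4 were below 0 and 0 passed 2-fold. The farthest from equal was the knirps-related gene knrl (1.35 FPKM in miR-305 males and 1.97 FPKM in control males, log2 ratio -0.34), followed by kni itself (4.07 and 4.70 FPKM, -0.17) and the xenobiotic receptor Hr96 (9.97 and 10.7 FPKM, -0.10). The ratios of ERR (0.005) and Hnf4 (-0.02) were close to 0, and both were positive when the medians were made equal and negative when the sums were. The receptors Hr3, Hr78 and svp shared a feature with another gene and were not read.

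**Figure D3:**
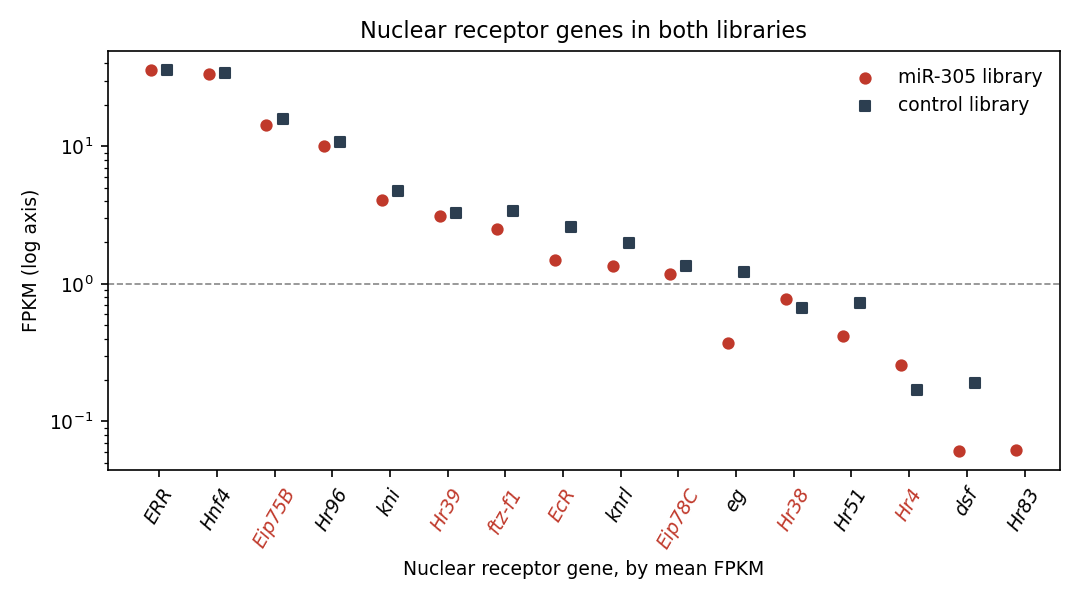
FPKM (log axis) of 16 nuclear receptor genes with a row of their own and a value above 0, in the miR-305 library (red circles) and the control library (dark squares), ordered by mean level; red names are members, the dashed line marks 1 FPKM, and a value of 0 is not drawn. ERR and Hnf4 lead near 34 to 36 FPKM, the circles and squares of both nearly coincide, and EcR lies in the middle of the family.

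Other genes induced by ecdysone or tied to its action were described from a list of 24, of which 20 had a row of their own and 14 a mean of at least 1 FPKM. None of the 14 passed 2-fold, beside 4.11% of all features, and 9 had a ratio below 0, beside 53.6%. The median of the 14 was -0.16. Among the 7 genes with a mean of at least 10 FPKM the direction was the other way, with 2 ratios below 0 and a median of 0.16. Pdcd4, a relative of a vertebrate translation inhibitor, was the farthest below equal, with 27.3 FPKM in miR-305 males and 40.8 FPKM in control males (log2 ratio -0.56). ImpL3, the lactate dehydrogenase gene, was the farthest above, with 48.5 FPKM in miR-305 males and 32.6 FPKM in control males (0.56). Eip93F, a transcription factor of adult fate, had 3.01 FPKM in miR-305 males and 4.07 FPKM in control males (-0.34). Kr-h1, which responds to juvenile hormone as well, had 21.5 FPKM in miR-305 males and 17.3 FPKM in control males (0.30). The 6 genes of this list that were below 1 FPKM (rpr, ImpL1, ImpE1, ImpE2, ImpE3 and Fbp1) had mean levels of at most 0.62 FPKM.

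Of 19 listed genes of ecdysteroid synthesis 18 had a row, 9 were past 1 FPKM and 9 below it, and 0 of the 9 past it differed by 2-fold. Their median was -0.08, with 6 below 0 and 3 above, beside 53.6% of all features below 0 and 4.11% past 2-fold. The cytochrome P450 genes of the Halloween group, which carry out later steps from cholesterol to 20-hydroxyecdysone, were all under 1 FPKM: sad had 0.61 FPKM in miR-305 males and 0.42 FPKM in control males, shd 0.82 and 0.90 FPKM, and phm 0.36 and 0.27 FPKM. Apart from the P450 gene Cyp6t3 (1.25 and 1.38 FPKM), most genes past 1 FPKM serve in sterol traffic, electron supply or control. The receptor tyrosine kinase gene tor, through which the brain peptide Ptth acts, had the ratio farthest from 0, with 2.24 FPKM in miR-305 males and 1.51 FPKM in control males (0.37). The ferredoxin gene Fdxh had 22.7 FPKM in miR-305 males and 29.2 FPKM in control males (-0.35), the lipid transfer gene Start1 7.28 and 9.16 FPKM (-0.30), and Ptth 3.18 and 4.07 FPKM (-0.28).

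All 4 listed genes of ecdysteroid uptake and breakdown were past 1 FPKM, and 0 passed 2-fold, beside 4.11% of all features. The median of the 4 was 0.08. Eo, the gene of ecdysone oxidase, which inactivates the hormone, had 3.16 FPKM in miR-305 males and 1.67 FPKM in control males. Its log2 ratio of 0.64 was the farthest from 0 of all the pathway genes with a row of their own and a mean of at least 1 FPKM, and it was positive under each scaling tried. That rank depends on the setting: with a pseudocount of 5 Eo had 0.29 beside -0.60 for the chaperone gene Hsp83, and with equal sums Eo had 0.43 beside -0.89 for Hsp83. The other inactivating enzyme, the cytochrome P450 gene Cyp18a1, had 3.59 FPKM in miR-305 males and 3.88 FPKM in control males (-0.09). The importer gene Oatp74D had 7.67 FPKM in miR-305 males and 6.63 FPKM in control males (0.18, and -0.06 with the same sum), and the transporter gene Atet had 7.61 and 7.79 FPKM (-0.03, and 0.04 with the same median).

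Co-regulators and chaperones of the receptor made up the last list, with 17 of 19 genes read, all past 1 FPKM. None passed 2-fold, beside 4.11% of all features, and 11 had a ratio below 0, beside 53.6%. The median of the 17 was -0.06, and 0.01 with the same median in both libraries. Hsp83, the chaperone that helps EcR and usp bind DNA, had 190 FPKM in miR-305 males and 290 FPKM in control males (-0.61). The coactivator gene tai had 5.31 FPKM in miR-305 males and 7.07 FPKM in control males (-0.35), and the nucleosome remodelling gene E(bx) had 7.58 and 9.56 FPKM (-0.30). The Mediator gene MED24, which is needed in flies for the death of larval salivary glands, had 9.32 FPKM in miR-305 males and 7.16 FPKM in control males (0.34).

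**Figure D4:**
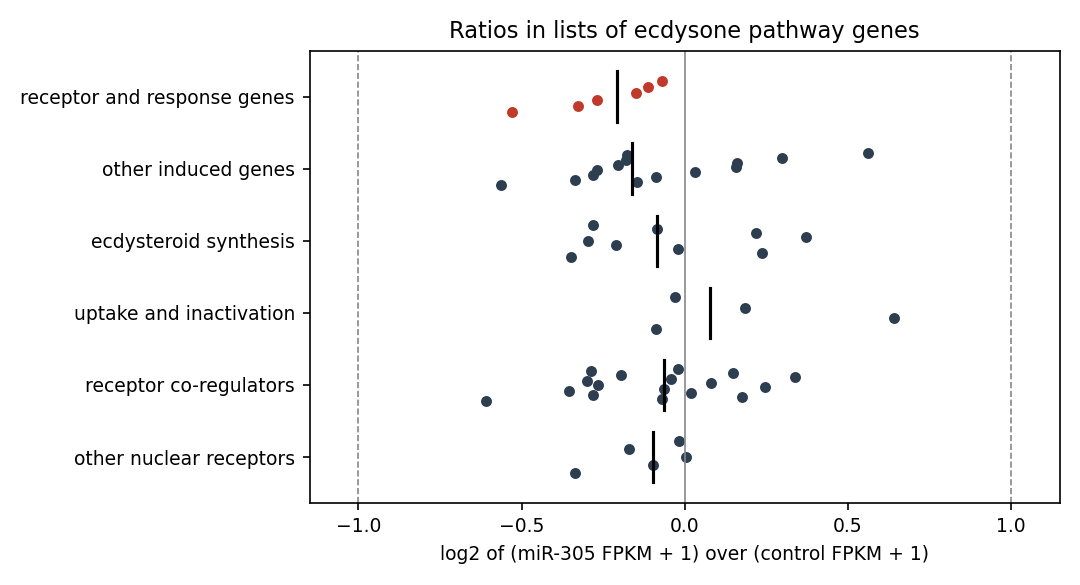
Log2 ratio of the miR-305 library over the control library for genes past 1 FPKM with a row of their own, in the receptor and response genes (red) and 5 lists of other pathway genes (dark); each point is a gene, black bars are medians, the solid line marks equality and the dashed lines 2-fold. No point reaches a dashed line, and the medians run from -0.21 for the receptor and response genes to 0.08 for uptake and inactivation.

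The settings used for the ratio moved the members more than most of them differed from equal. When the sums were made equal, the median of the 6 genes was -0.44, while that of all features was -0.27, and with the same median in both libraries these values were -0.15 and 0.04. The members' median thus lay 0.18 below that of all features with the values as deposited, 0.16 below it with the same sum and 0.19 below it with the same median. Each scaling multiplies every miR-305 value by 1 factor, so these near equal gaps follow from the construction. They are gaps to all features, not to the long genes at 1 to 5 FPKM, whose median was -0.14 as deposited. The pseudocount moved the gap more: the median lay 0.24 below that of all features with a pseudocount of 0.1 and 0.11 below it with a pseudocount of 5.

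**Figure D5:**
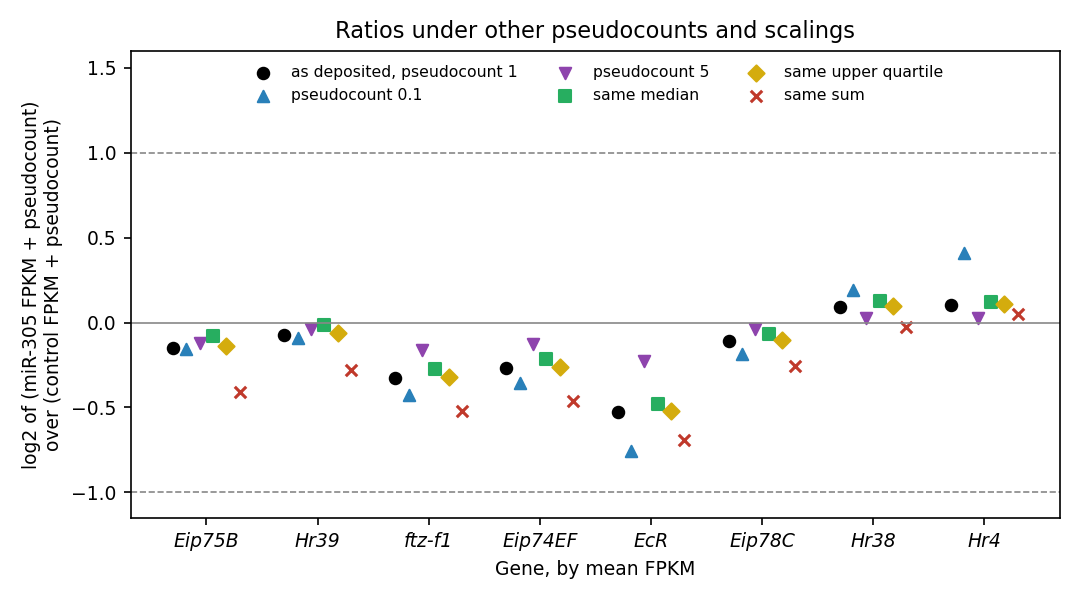
Log2 ratio of the miR-305 library over the control library for the 8 genes with a row of their own, ordered by mean level, with 3 pseudocounts and 3 scalings (symbols); the solid line marks equality and the dashed lines 2-fold. The symbols of the 6 genes past 1 FPKM lie below the solid line, those of Hr38 lie on both sides of it, and EcR spans -0.76 to -0.23.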

How the data were processed

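Per the labels' protocols, Trizol RNA went into NEBNext Ultra Directional libraries, sequenced as 51-bp single-end reads. The submitters' processing notes name the dm6 build, Cufflinks 2.2.1, TopHat2 2.0.13 and FastQC 0.11.5. The deposited table gives 1 FPKM value per library and feature, per the file headers, with the isoforms of a gene summed and no error. Low values did not fall on regular steps that would give whole reads. Prosalpha1, a proteasome gene, was listed at 0 in both libraries, so a 0 may be a failed estimate.

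Features were matched by symbol or RefSeq synonym and position with Ensembl 115 genes on dm6 (14964 matched, 94.1%), and coordinates are 1-based. The 634 features with several gene names were counted in no list. The log2 ratio used a pseudocount of 1 on the whole table, features needed a mean FPKM of at least 1, and the rule of size was 2-fold. No p-value was computed. The members, lists and settings were chosen with earlier results of these data known. The text names all 10 members, up to 4 genes per list with the largest absolute ratio, and da and mir-305. Other genes (ERR, eg, sad, shd, phm, Cyp6t3, the low induced genes, the tissue markers and the let-7 feature) were named after their values were seen. The gene da, whose enhancer drives the transgene, had 10.8 FPKM in miR-305 males and 12.6 FPKM in control males.

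Also tried were a pseudocount of 0.1 or 5, a minimum mean of 10 FPKM or none, scaling to the same median, upper quartile or sum, and a 1.5-fold rule. Counting the shared features was added after seeing the data. Work was done in Python 3.11.15 with numpy 2.4.6, pandas 2.3.3 and matplotlib 3.10.9 and tested on simulated data.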

Additional observations from a re-analysis of the deposited data

How the results depend on the processing

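No paired analysis was possible because each group had 1 library, which also left no library to leave out. The counts of members at least 2-fold higher and at least 2-fold lower were 0 under every setting tried. A median was taken to have moved when it shifted by over 0.1. With the same sum in both libraries every list's median moved: to -0.44 for the 6 members, -0.38 for the other induced genes, -0.30 for the co-regulators, -0.35 for the other nuclear receptors, and -0.28 for synthesis, uptake and inactivation as 1 list (-0.03 as deposited). This follows from the construction, which multiplies every miR-305 value by 0.822 and shifts the median of all features by -0.25. With a mean FPKM of at least 10, which left 7 other induced genes and 4 of synthesis, uptake and inactivation, those medians were 0.16 and 0.10, and 1 member, Eip75B, was left. The 1.5-fold rule counted 1 of 17 co-regulators as lower (Hsp83), beside 5.97% of all features. It counted 1 of 13 genes of synthesis, uptake and inactivation as higher (Eo), beside 716 of all 11936 features. Without a filter the members' median over 8 genes was -0.13. With no replicates and no read counts, the precision of a level near 1 FPKM is unknown.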

Other observations

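Juvenile hormone acts against ecdysone in larvae and sustains reproduction in adults, and its receptor genes were read beside those of ecdysone. Met had 2.77 FPKM in miR-305 males and 4.19 FPKM in control males, a log2 ratio of -0.46. Its paralogue gce had 5.13 FPKM in miR-305 males and 6.997 FPKM in control males (-0.38). With tai, their shared partner (-0.35), these 3 genes lay below equal, while their target gene Kr-h1 lay above it (0.30). With the same median in both libraries Met, gce and tai had -0.40, -0.32 and -0.29, and with the same sum Kr-h1 had 0.03. None passed 2-fold.

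The feature that holds let-7-C, a locus whose microRNAs follow ecdysone pulses at metamorphosis, had 23.4 FPKM in miR-305 males and 0.33 FPKM in control males. It was the only feature of the ecdysone lists past 2-fold. It also holds the stem-loops mir-100 (100 nt) and mir-125 (110 nt), 1 host transcript is annotated at 2449 nt, and the value of each cannot be read apart. Among receptors under 1 FPKM, eg had 0.37 FPKM in miR-305 males and 1.22 FPKM in control males.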
